A study of Mus musculus with 9 samples.

Results

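Glycolysis and hypoxia genes were followed as a group of 32 genes of the 18049 in the deposited table, chosen by gene symbol from a list of the pathways' genes. The choice was made with earlier results of these data known. The members comprise 23 genes of the path from glucose to lactate, including the regulators Pfkfb3, Pfkfb4 and Pdk1, and 9 genes of the hypoxia-inducible factor (HIF) pathway. RNA came from macrophages grown from bone marrow of C57BL/6 mice aged 8 weeks, cultured in RPMI medium and collected after 6 h with one of the additions that follow. The 3 control libraries received medium only, 3 received 1 µM 15d-PGJ2, an electrophilic prostaglandin, and 3 received 1 µM of a compound labelled 15d-PGJ2-PC, whose suffix the labels do not spell out. No genotype, transgene or further agent is given for any group, and nothing says whether the 3 libraries of a group came from separate cultures or animals. P-values therefore speak only of the scatter among these libraries, and that scatter may be technical.

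Glycolysis splits glucose into pyruvate in the cytosol and yields ATP without oxygen, and lactate dehydrogenase then turns pyruvate into lactate, which leaves the cell through monocarboxylate transporters. HIF-1 is a transcription factor whose α subunit is marked for destruction by prolyl hydroxylases when oxygen is present, and which otherwise switches on glucose uptake, most glycolytic enzymes and genes of oxygen delivery. Macrophages are known to raise glycolysis, in part through HIF-1α, when they are activated by microbial products.

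Libraries held roughly 5210000 to 5370000 reads, read off the steps between low values (62.0% to 69.4% of short-gene values lay within 0.1 of a whole read, so the figure is approximate), and 10876 to 11026 genes reached 1 FPKM. The score for fit to whole reads was close to that of another depth in some libraries (0.607 against 0.564 in 15d-PGJ2 replicate 1). It was clearer in others (0.628 against 0.457 in control replicate 3). By the estimate above, 23 of the 32 members rested on more than 100 reads in every library. Ldhb, Slc16a1, Egln3 and Aldoc went down to 17, 18, 14 and 2 reads. FPKM is the fragment count scaled to transcript length and library size, so levels can be set side by side between genes. Of 14 macrophage markers, all listed, 13 were tested and all 13 fell with 15d-PGJ2, from a summed 8221 to 8446 FPKM in controls to 6174 to 6533. With 15d-PGJ2-PC 10 of the 13 fell, to a sum of 7249 to 7439.8 FPKM. In bulk RNA, fewer cells of a type and less RNA per cell cannot be told apart. Markers of the epidermis (9 listed) summed to 25.0 to 29.6 FPKM in controls and at most 1.48 in treated libraries, where Krt5, Krt14, Krt1, Lor, Krtdap and Sprr1a were at 0. Markers of stromal fibroblasts (9 listed) summed to 41.6 to 48.5 FPKM in controls, 10.5 to 13.0 with 15d-PGJ2 and 9.53 to 10.6 with 15d-PGJ2-PC. Erythroid markers (5 of 6 listed) went from 20.5 to 32.3 FPKM in controls to at most 1.60 in treated libraries. Skeletal muscle markers (8 of 9 listed) stood at 4.63 to 6.75, 2.76 to 5.04 and 4.31 to 6.39 FPKM in the 3 groups. Neutrophil markers (9 listed) stood at 32.6 to 35.9, 18.2 to 21.4 and 25.1 to 30.0 FPKM, and endothelial markers (6 listed) at 40.2 to 43.6, 27.6 to 34.3 and 36.3 to 41.6. These sums hide opposite moves. Of 5 tested neutrophil markers, 1 rose and 3 fell with 15d-PGJ2, and mean Mpo went from 0.09 FPKM in controls to 1.69 and 1.99. Of 3 tested endothelial markers, 2 rose and 1 fell with 15d-PGJ2. Pecam1, most of that sum, went from 38.1 to 21.9 FPKM and Esam from 1.29 to 5.89. All 7 tested epidermis markers, all 7 stromal and all 3 erythroid ones fell with both compounds. The 4 listed adipocyte markers summed to 0.81 to 1.25 FPKM in controls and to 0 in every treated library. The part of these other cells in the results that follow was not tested.

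With 15d-PGJ2, macrophages had more RNA for the glucose transporter encoded by Slc2a1, aldolase and every member enzyme from glyceraldehyde phosphate to pyruvate. They had less for hexokinase 2, the PFKFB enzymes that make the activator of phosphofructokinase, triose phosphate isomerase and lactate dehydrogenase A. Of 31 members above the filter (a level of 1 FPKM or more in any 3 libraries), 13 rose, 6 fell and 12 did not pass, by limma's moderated test on log2(FPKM + 1) with Benjamini-Hochberg adjusted p under 0.05. That is 61.3% called, against 47.2% of all 11309 genes tested, of which 22.2% rose and 25.0% fell. Because the members were chosen with earlier results of these data known, their shares, here and below, are no independent comparison with all genes. With 15d-PGJ2-PC, 11 members rose, 4 fell and 16 did not pass, 48.4% called against 27.8% of all genes (13.8% rose and 14.1% fell). The median member differed from control by 0.24 on the log2 scale with 15d-PGJ2 and by 0.08 with 15d-PGJ2-PC, where the median over all tested genes was -0.02 and -0.004. Groups did not overlap for 21 members with 15d-PGJ2, 15 higher and 6 lower, against 55.1% of all genes, 26.3% higher and 28.8% lower. With 15d-PGJ2-PC they did not overlap for 17 members, 13 higher and 4 lower, against 41.8% of all genes, 20.5% higher and 21.3% lower. Both comparisons use the same 3 control libraries. The only member below the filter was the brain-type aldolase gene Aldoc, at 0.13 to 1.27 FPKM over the 9 libraries.

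**Figure D1:**
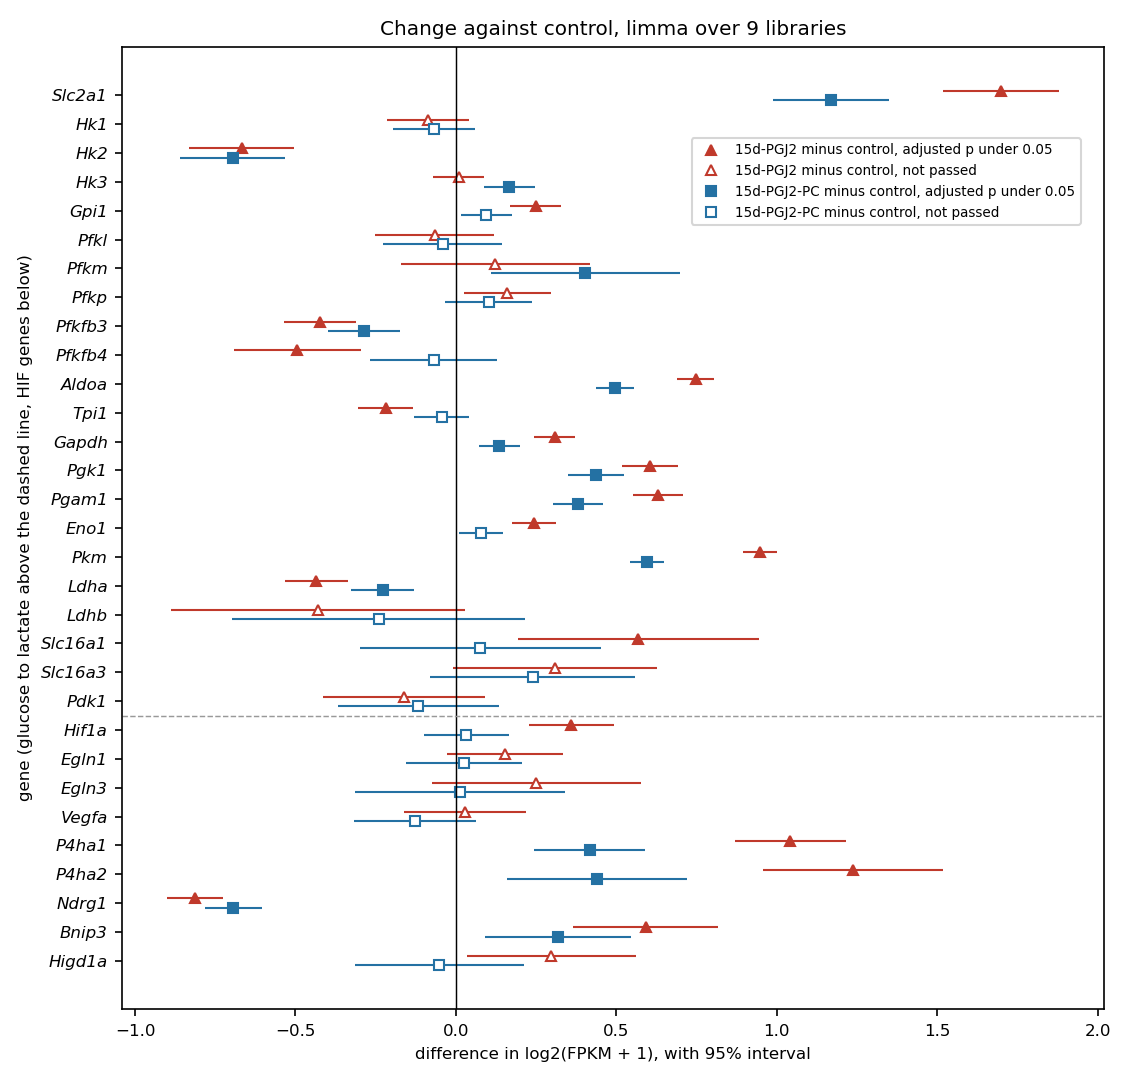
Difference from control in log2(FPKM + 1) for the 31 tested members (horizontal axis), with 95% intervals from limma over 9 libraries. Triangles stand for 15d-PGJ2 and squares for 15d-PGJ2-PC, filled where the adjusted p was under 0.05. Slc2a1 (1.70 and 1.17) lies farthest to the right and Ndrg1 (-0.81 and -0.69) and Hk2 (-0.67 and -0.70) farthest to the left among filled symbols.

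Promoter sequences are shown for members that rose most with 15d-PGJ2 (Slc2a1, P4ha2 and Pkm) and for Hk2, which fell, because HIF-1 binds a short core, ACGTG or GCGTG, in the promoters of its targets. Each is the stretch of 250 bases before a transcription start in RefSeq, build GRCm38.p6, the assembly that mm10 names, written 5′ to 3′ on the gene's strand with every core in capitals on either strand (CACGT and CACGC are the cores read from the other strand; ACGTG can also be part of the E-box CACGTG). The windows are chr4:119108495-119108744 (plus strand), chr11:54100674-54100923 (plus), chr9:59656326-59656575 (plus) and chr6:82774455-82774704 (minus).
Slc2a1: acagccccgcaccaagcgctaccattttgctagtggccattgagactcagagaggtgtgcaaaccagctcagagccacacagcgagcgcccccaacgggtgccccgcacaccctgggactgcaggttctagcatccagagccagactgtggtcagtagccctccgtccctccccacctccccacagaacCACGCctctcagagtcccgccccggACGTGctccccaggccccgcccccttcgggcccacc
P4ha2: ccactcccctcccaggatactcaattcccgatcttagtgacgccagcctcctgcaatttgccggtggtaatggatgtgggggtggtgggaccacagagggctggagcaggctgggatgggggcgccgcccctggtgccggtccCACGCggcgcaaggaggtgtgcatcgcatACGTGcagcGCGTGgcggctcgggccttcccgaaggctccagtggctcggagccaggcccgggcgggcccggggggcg
Pkm: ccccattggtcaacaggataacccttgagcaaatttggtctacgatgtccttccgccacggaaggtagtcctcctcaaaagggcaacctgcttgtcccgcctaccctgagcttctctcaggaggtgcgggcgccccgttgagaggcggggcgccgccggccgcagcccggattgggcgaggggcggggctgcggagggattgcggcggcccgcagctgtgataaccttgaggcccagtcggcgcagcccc
Hk2: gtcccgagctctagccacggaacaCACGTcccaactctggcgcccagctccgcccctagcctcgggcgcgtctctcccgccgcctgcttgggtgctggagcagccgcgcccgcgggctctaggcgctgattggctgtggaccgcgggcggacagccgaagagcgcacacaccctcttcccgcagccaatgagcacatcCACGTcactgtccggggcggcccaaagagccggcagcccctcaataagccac
The Slc2a1 window has 1 ACGTG and 1 GCGTG, with the nearest core starting at position -36 from the transcription start. P4ha2 holds 3 cores, 1 ACGTG and 2 GCGTG, the nearest at -69. P4ha1, among the largest rises too, also holds 3, and its window is not printed because it overlaps the annotated gene. Hk2 holds 2 ACGTG cores, the nearest at -52, and Pkm holds none in this window and 1 in the window of its other start. Of the 32 members, 31 matched an entry (all but Ndrg1) and 29 of them (93.5%) had at least 1 core in at least 1 window, against 61.7% of the 9022 tested genes and 41.5% of all 27025 genes with an entry. A gene with more starts has more windows. By window, 37 of 45 member windows held a core, against 38.6% of all 32851, which include windows of genes that were not tested. The members were picked as glycolysis and HIF genes, so this share is no independent result. Member windows had a median GC content of 61.6%, those of tested genes 59.6% and all windows 52.4%. Cores were present in 12 of 13 members that rose with 15d-PGJ2, 4 of 5 that fell, 12 of 12 that did not pass and in Aldoc, which was not tested. TGACNNNGC, a core of the antioxidant response element bound by Nrf2, lay in windows of 4 members (Aldoa, Hk1, P4ha1 and Slc16a1) and of 14.1% of tested genes. GAANNTTC, a pair of heat shock factor half-sites, lay in a window of Pfkl alone among members and of 6.2% of tested genes. A match in these letters is a description of the sequence and shows no binding.

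Glucose enters through the transporter GLUT1, encoded by Slc2a1 (Entrez 20525, GRCm38 chromosome 4, 119108745 to 119137330), and is trapped by hexokinase. Slc2a1 was at 15.4, 18.1 and 19.3 FPKM in the controls, 57.0, 64.9 and 55.7 with 15d-PGJ2 and 40.2, 39.9 and 41.6 with 15d-PGJ2-PC. The 3 groups did not overlap, with 15d-PGJ2-PC between the others. The gene rose 3.37-fold with 15d-PGJ2, by 1.70 on the log2 scale (SE 0.08, limma adjusted p = 4.65e-08), and 2.31-fold with 15d-PGJ2-PC, by 1.17 (SE 0.08, adjusted p = 3.01e-06). It was the largest rise among the members in both comparisons.

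The 3 hexokinase genes did not move together. Hk2, the inducible and mitochondria-bound enzyme (Entrez 15277, chromosome 6, 82725025 to 82774454, minus strand), was at 18.9, 20.1 and 20.3 FPKM in the controls, 13.4, 11.9 and 11.0 with 15d-PGJ2 and 11.5, 11.8 and 12.2 with 15d-PGJ2-PC. All 6 treated libraries lay below all controls and the treated groups overlapped. Hk2 fell by 0.67 on the log2 scale with 15d-PGJ2 (SE 0.07, limma adjusted p = 2.70e-05) and by 0.70 with 15d-PGJ2-PC (SE 0.07, adjusted p = 5.28e-05). Hk3, a hexokinase of myeloid cells, was the most abundant of the family, at 112, 115 and 112 FPKM in controls. It stood at 118, 113 and 111 FPKM with 15d-PGJ2 (log2 difference 0.01, adjusted p = 0.865) and rose to 126, 125 and 129.9 with 15d-PGJ2-PC, by 0.17 (adjusted p = 0.00553). Hk1, the widely expressed enzyme, ranged from 17.7 to 20.9 FPKM over the 9 libraries and passed in neither comparison.

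Within the hexokinase family Hk2 went from 12.9% ± 0.43 of the summed FPKM in controls to 8.35% ± 0.51 with 15d-PGJ2 and 7.49% ± 0.15 with 15d-PGJ2-PC (SD, n = 3 per group), and Hk3 from 74.0% ± 0.56 to 78.7% ± 0.63 and 80.5% ± 0.05. Both shares were without overlap between any of the groups (exact 2-sided permutation p = 0.1 each, the smallest that 3 against 3 libraries allow, and 0.24 adjusted over 36 share tests). Shares of the same sum move against each other, so those of Hk2 and Hk3 are not separate results. Hk3 itself differed from control by only 0.01 on the log2 scale with 15d-PGJ2, and Hk2 by -0.03 between the compounds. The summed hexokinase level was 153 ± 1.28 FPKM in controls, 145 ± 5.81 with 15d-PGJ2 and 158 ± 3.08 with 15d-PGJ2-PC.

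**Figure D2:**
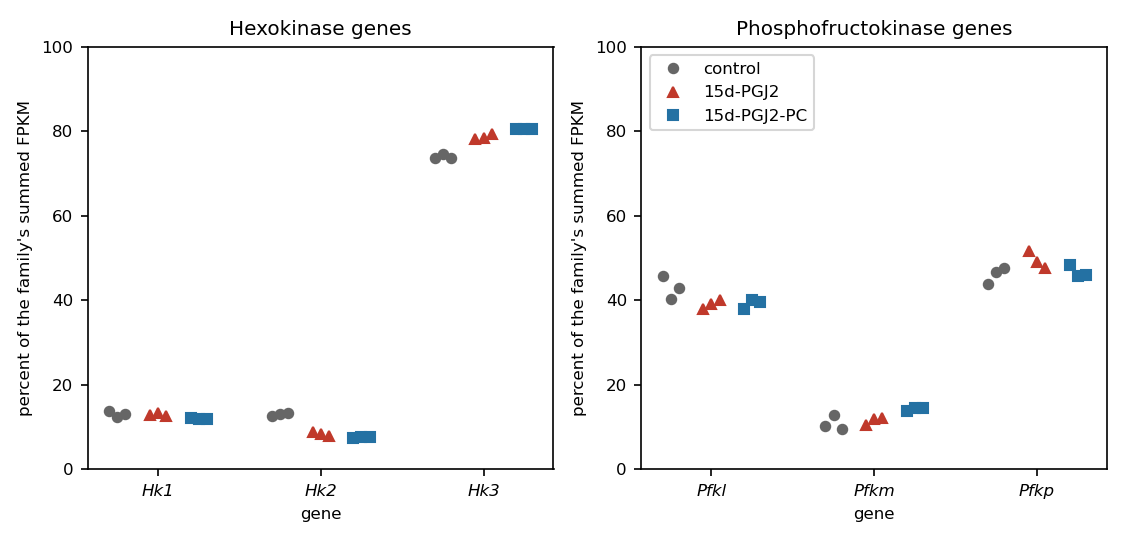
Share of the family's summed FPKM (vertical axis, percent) held by each hexokinase gene (left) and each phosphofructokinase gene (right), 1 symbol per library. Hk3 holds 73.7% to 80.6% of the hexokinase sum, and Hk2 is lower in all 6 treated libraries (7.31% to 8.89%) than in controls (12.5% to 13.3%).

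In the next steps, Gpi1 (glucose phosphate isomerase) rose from 132, 136 and 132 FPKM in controls to 161, 159.6 and 155 with 15d-PGJ2, by 0.25 on the log2 scale (SE 0.04, limma adjusted p = 0.00019). It was at 137, 147 and 144 FPKM with 15d-PGJ2-PC, above all controls but short of the threshold (adjusted p = 0.0741), though it passed without 15d-PGJ2-PC replicate 1 (0.0376) and with quantile normalization (0.0408, range 0.0376 to 0.229 over 18 alternatives). Phosphofructokinase, the committed and most tightly regulated step, has liver (Pfkl), muscle (Pfkm) and platelet (Pfkp) subunits. The sum of the 3 subunit genes was 39.9 ± 2.58 FPKM in controls, 41.8 ± 3.19 with 15d-PGJ2 and 42.5 ± 1.26 with 15d-PGJ2-PC. Pfkl ranged from 14.6 to 18.7 FPKM over all libraries and passed in no comparison. Pfkp was at 17.6 to 19.6 FPKM in controls and 19.8 to 21.9 with 15d-PGJ2, without overlap (log2 difference 0.16, adjusted p = 0.0533). It passed without control replicate 2 (0.0299) or 15d-PGJ2 replicate 1 (0.0494), with a filter of 5 FPKM and with quantile normalization (range 0.0299 to 0.181).

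Pfkm, the least abundant subunit gene, was at 4.21, 5.38 and 3.54 FPKM in the controls, 4.04, 5.27 and 5.17 with 15d-PGJ2 and 5.74, 6.04 and 6.36 with 15d-PGJ2-PC. It rose with 15d-PGJ2-PC by 0.40 (SE 0.13, limma adjusted p = 0.0446), a call that ended in 10 of 18 alternatives, among them the fits without control replicate 1 (0.109) or 3 (0.149), without 15d-PGJ2-PC replicates 1, 2 or 3 (0.0719, 0.0966 and 0.122) and without 15d-PGJ2 replicates 2 or 3 (0.0518 and 0.0558). The share of Pfkl in the subunit sum was 43.0% ± 2.71 in controls, 39.1% ± 1.11 with 15d-PGJ2 and 39.1% ± 1.16 with 15d-PGJ2-PC (exact permutation p = 0.1 for each against control, 0.24 adjusted, n = 3 per group). The same p was reached against control by the Pfkp share with 15d-PGJ2 (3.32 points higher) and the Pfkm share with 15d-PGJ2-PC (3.33 points higher). Of all 36 share tests, 15 reached this smallest possible p.

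The bifunctional PFKFB enzymes set the level of fructose 2,6-bisphosphate, which activates phosphofructokinase, and both genes fell with 15d-PGJ2. Pfkfb3, the strongly glycolytic isoform (Entrez 170768, chromosome 2, 11471430 to 11554071, minus strand), was at 38.2, 40.5 and 43.1 FPKM in the controls, 30.0, 29.5 and 30.6 with 15d-PGJ2 and 33.2, 33.4 and 32.6 with 15d-PGJ2-PC. No group overlapped another. The fall was 0.42 on the log2 scale with 15d-PGJ2 (SE 0.05, limma adjusted p = 4.87e-05), and Pfkfb3 fell by 0.29 with 15d-PGJ2-PC (SE 0.05, adjusted p = 0.00161). Pfkfb4 was at 10.5, 8.89 and 10.5 FPKM in controls and 7.39, 6.01 and 6.93 with 15d-PGJ2, where it fell by 0.49 (SE 0.09, adjusted p = 0.000946). With 15d-PGJ2-PC it was at 9.23, 9.46 and 9.55 FPKM, within the range of the controls (log2 difference -0.07, adjusted p = 0.615).

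Aldolase A, encoded by Aldoa (Entrez 11674, chromosome 7, 126795234 to 126800994, minus strand), cuts the hexose into its pair of trioses. Aldoa was at 629, 606 and 607 FPKM in the controls, 1048, 1019 and 1029 with 15d-PGJ2 and 855, 868 and 878 with 15d-PGJ2-PC, with no overlap between any groups. It rose by 0.75 on the log2 scale with 15d-PGJ2 (SE 0.03, limma adjusted p = 6.84e-09) and by 0.50 with 15d-PGJ2-PC (SE 0.03, adjusted p = 4.70e-07). Aldoa made up 99.85% to 99.99% of the aldolase sum over the 9 libraries. Tpi1, the triose phosphate isomerase that joins the trioses in 1 path, went the other way. It fell from 154, 142 and 142 FPKM in controls to 128, 124 and 123 with 15d-PGJ2, by 0.22 (SE 0.04, adjusted p = 0.000873), and was at 141, 139 and 143 with 15d-PGJ2-PC (log2 difference -0.04, adjusted p = 0.441).

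**Figure D3:**
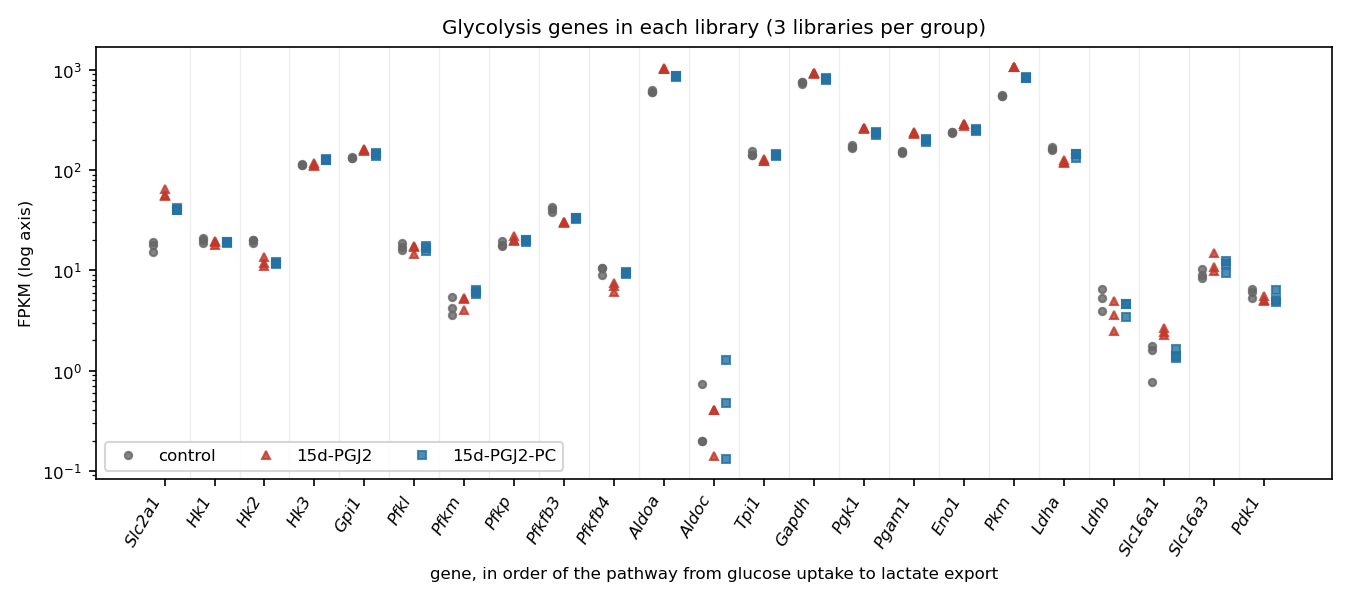
FPKM on a log axis of the 23 genes of the path from glucose uptake to lactate export, including the regulators Pfkfb3, Pfkfb4 and Pdk1, with 1 symbol per library. Aldoa, Gapdh and Pkm are the most abundant, at 801 FPKM or more in every treated library, Aldoc is near the bottom at 0.13 to 1.27 FPKM, and the steps at Hk2, Pfkfb3 and Ldha are lower in treated libraries while Slc2a1, Aldoa, Pgk1, Pgam1 and Pkm are higher.

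All 5 enzyme genes from glyceraldehyde phosphate to pyruvate rose with 15d-PGJ2, and 4 of the 5 rose with 15d-PGJ2-PC. Pkm, which encodes the M-type pyruvate kinase of the last ATP-making step (Entrez 18746, chromosome 9, 59656576 to 59679372), was at 549, 566 and 549.8 FPKM in the controls, 1077, 1072 and 1066 with 15d-PGJ2 and 845, 835 and 834 with 15d-PGJ2-PC. The spread within each group was small beside the distance between groups, and none overlapped. Pkm rose 1.93-fold with 15d-PGJ2, by 0.95 on the log2 scale (SE 0.02, limma adjusted p = 9.47e-10), and 1.51-fold with 15d-PGJ2-PC, by 0.59 (SE 0.02, adjusted p = 7.46e-08). The table gives 1 value for the gene, so its M1 and M2 splice forms cannot be told apart.

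Pgk1, phosphoglycerate kinase, which makes the first ATP (Entrez 18655, chromosome X, 106187100 to 106203699), went from 170.4, 164 and 179.9 FPKM in controls to 262, 266 and 257 with 15d-PGJ2 and 224, 235 and 238 with 15d-PGJ2-PC. Its log2 change was 0.61 (SE 0.04, limma adjusted p = 4.30e-07) and 0.44 (SE 0.04, adjusted p = 1.65e-05). Pgam1, phosphoglycerate mutase (Entrez 18648, chromosome 19, 41911871 to 41918665), went from 147, 154 and 153 FPKM to 237, 237 and 230.3 with 15d-PGJ2, by 0.63 (adjusted p = 1.29e-07), and to 191, 204 and 198 with 15d-PGJ2-PC, by 0.38 (adjusted p = 1.92e-05). For both genes the treated libraries lay above all controls, with those of 15d-PGJ2 highest.

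Gapdh and Eno1 moved less. Gapdh, the oxidizing enzyme that is often used as a reference gene (Entrez 14433, chromosome 6, 125161852 to 125166467, minus strand), was at 754, 754 and 719.9 FPKM in the controls, 930.2, 922 and 906 with 15d-PGJ2 and 801, 813 and 834 with 15d-PGJ2-PC. It rose by 0.31 with 15d-PGJ2 (SE 0.03, limma adjusted p = 7.25e-06) and by 0.14 with 15d-PGJ2-PC (SE 0.03, adjusted p = 0.00511), the latter not passing without the intensity trend (0.0638, range 0.00364 to 0.0638). Eno1, the main enolase gene (Entrez 13806, chromosome 4, 150236708 to 150248879), was at 239, 242 and 235 FPKM in controls and rose to 277, 287 and 285 with 15d-PGJ2, by 0.24 (SE 0.03, adjusted p = 7.55e-05). At 245, 253 and 258 FPKM with 15d-PGJ2-PC it was above all controls but did not pass (adjusted p = 0.0924), except with quantile normalization (0.0478, range 0.0478 to 0.263). The table lists 9 pseudogenes of Gapdh, 1 of Ldha and the Eno1 copy Eno1b, none of them above 1.16 FPKM. How reads that match both a gene and a copy were counted is not given, so these low values do not bound the shared reads. Copies outside the table were not analysed here.

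At the branch to lactate, Ldha, the lactate dehydrogenase subunit that favours lactate formation (Entrez 16828, chromosome 7, 46842274 to 46855627), fell in both comparisons. It was at 159, 163 and 171 FPKM in the controls, 126, 119 and 119 with 15d-PGJ2 and 144, 144 and 133 with 15d-PGJ2-PC. The groups did not overlap, and the order was the reverse of that of Pkm. Ldha fell by 0.43 on the log2 scale with 15d-PGJ2 (SE 0.04, limma adjusted p = 1.46e-05) and by 0.23 with 15d-PGJ2-PC (SE 0.04, adjusted p = 0.00307). Ldha held 96.1% to 98.0% of the summed lactate dehydrogenase level in every library. Ldhb, the heart-type subunit, was at 3.94 to 6.47 FPKM in controls and 2.48 to 4.97 with 15d-PGJ2, with overlap (log2 difference -0.43, adjusted p = 0.113). It passed without 15d-PGJ2 replicate 1 (0.0281, range 0.0116 to 0.373 over 17 alternatives, since it was below the 5 FPKM filter).

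Lactate leaves through MCT1 (Slc16a1) and the export-type carrier MCT4 (Slc16a3). Slc16a1 was low, at 1.60, 0.76 and 1.74 FPKM in controls and 2.42, 2.65 and 2.27 with 15d-PGJ2, where it rose by 0.57 (SE 0.17, limma adjusted p = 0.0179), though not without 15d-PGJ2 replicate 2 (0.0589, range 0.0117 to 0.0589). It was at 1.65, 1.33 and 1.38 FPKM with 15d-PGJ2-PC, within the control range (adjusted p = 0.785). Slc16a3 was at 8.42 to 10.2 FPKM in controls, 9.88 to 14.8 with 15d-PGJ2 and 9.38 to 12.5 with 15d-PGJ2-PC, with overlap, and passed in neither comparison (adjusted p = 0.103 and 0.257). Without 15d-PGJ2 replicate 2 it passed with 15d-PGJ2 (0.0478, range 0.0478 to 0.36). Pdk1, a kinase that inhibits pyruvate dehydrogenase and so limits the conversion of pyruvate to acetyl-CoA in mitochondria, ranged from 4.80 to 6.49 FPKM over the 9 libraries and passed in no comparison.

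Added up over the transporters and enzymes of the 13 steps from glucose transport to lactate export, these genes took 0.654% to 0.663% of all FPKM in controls, 0.901% to 0.916% with 15d-PGJ2 and 0.791% to 0.816% with 15d-PGJ2-PC. The ranges of the 3 groups did not overlap. The transport step holds Slc2a1 alone. The carrier gene Slc2a6, outside the members and not in the sum, was at 19.5 FPKM in controls, 10.9 with 15d-PGJ2 and 14.1 with 15d-PGJ2-PC. Relative to control, the summed member level of a step was 3.37 times as high for transport, 1.68 for aldolase and 1.93 for pyruvate kinase with 15d-PGJ2. It was 0.947 for hexokinase, 1.05 for phosphofructokinase, 0.858 for triose phosphate isomerase and 0.737 for lactate dehydrogenase. With 15d-PGJ2-PC the same steps stood at 2.31, 1.41, 1.51, 1.03, 1.06, 0.969 and 0.852 times control.

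Among HIF regulators, Hif1a, which encodes the oxygen-sensitive subunit HIF-1α (Entrez 15251, chromosome 12, 73901324 to 73947554), was at 18.5, 17.2 and 19.1 FPKM in the controls, 22.7, 24.1 and 24.4 with 15d-PGJ2 and 19.6, 18.5 and 18.0 with 15d-PGJ2-PC. Libraries with 15d-PGJ2 lay above all others, and those with 15d-PGJ2-PC overlapped the controls. Hif1a rose with 15d-PGJ2 by 0.36 on the log2 scale (SE 0.06, limma adjusted p = 0.000535) and differed by 0.03 with 15d-PGJ2-PC (95% interval -0.10 to 0.16, adjusted p = 0.744). HIF-1α is controlled mainly as a protein, which was not measured.

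The 2 member genes for prolyl hydroxylases that mark HIF-1α, Egln1 and Egln3, did not pass in any comparison. Egln1 (PHD2), the main oxygen sensor, was at 8.31 to 8.66 FPKM in controls, 8.89 to 10.1 with 15d-PGJ2 and 7.89 to 9.60 with 15d-PGJ2-PC (limma adjusted p = 0.149 and 0.863 against control). Egln3 (PHD3), itself a HIF target, was at 0.99 to 1.60, 1.54 to 2.08 and 1.27 to 1.61 FPKM (adjusted p = 0.189 and 0.962).

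HIF targets outside glycolysis went in different directions. The collagen prolyl 4-hydroxylase genes rose most. P4ha1 (Entrez 18451, chromosome 10, 59323197 to 59373304) was at 20.6, 21.8 and 24.5 FPKM in the controls, 45.6, 49.7 and 45.4 with 15d-PGJ2 and 27.6, 29.9 and 32.8 with 15d-PGJ2-PC, without overlap. It rose 2.10-fold, by 1.04 (SE 0.08, limma adjusted p = 1.31e-06), and 1.35-fold, by 0.42 (SE 0.08, adjusted p = 0.00246).

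P4ha2 (Entrez 18452, chromosome 11, 54100924 to 54131668) was at 4.31, 2.92 and 3.56 FPKM in the controls, 8.55, 9.90 and 10.9 with 15d-PGJ2 and 5.61, 4.67 and 5.33 with 15d-PGJ2-PC, again without overlap. It rose 2.72-fold with 15d-PGJ2, by 1.24 on the log2(FPKM + 1) scale (SE 0.13, limma adjusted p = 1.47e-05). With 15d-PGJ2-PC it rose by 0.44 (SE 0.13, adjusted p = 0.0248), which ended on leaving out control replicate 2 (0.0917) or 3 (0.0597) or 15d-PGJ2-PC replicate 1 (0.0808) or 3 (0.0699) and with no filter (0.0562, range 0.0115 to 0.0917). P4ha1 held 86.1% ± 2.95 of the summed level of the pair in controls and 82.7% ± 1.91 with 15d-PGJ2 (SD, n = 3 per group, exact permutation p = 0.3). Stromal fibroblasts also make P4ha1 and P4ha2, and the summed stromal markers stood at 41.6 to 48.5 FPKM in controls, 10.5 to 13.0 with 15d-PGJ2 and 9.53 to 10.6 with 15d-PGJ2-PC. Their part in the values of this pair was not tested.

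Bnip3, a mitophagy receptor and member of the BH3-only group (Entrez 12176, chromosome 7, 138890836 to 138909506, minus strand), rose with 15d-PGJ2 from 14.5, 13.2 and 10.8 to 21.2, 19.2 and 18.9 FPKM, by 0.59 (SE 0.10, limma adjusted p = 0.000728). With 15d-PGJ2-PC it was at 15.2, 18.0 and 15.3 FPKM and rose by 0.32 (SE 0.10, adjusted p = 0.0405). That call ended in 11 of 18 alternatives, including the fits without control replicate 2 (0.073) or 3 (0.127), without 15d-PGJ2-PC replicates 1, 2 or 3 (0.053, 0.139 and 0.0587) and without 15d-PGJ2 replicates 2 or 3 (0.0534 and 0.0525). Higd1a, a mitochondrial hypoxia-induced gene, was at 5.99 to 8.28 FPKM in controls and 7.73 to 9.56 with 15d-PGJ2 (log2 difference 0.30, adjusted p = 0.0624). It passed without control replicate 2 (0.0199) and without 15d-PGJ2 replicate 1 (0.0325, range 0.0199 to 0.212).

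Vegfa, the angiogenic growth factor and a classical HIF target, did not pass. It was at 6.10 to 6.79 FPKM in controls, 5.93 to 7.06 with 15d-PGJ2 (log2 difference 0.03, 95% interval -0.16 to 0.22, limma adjusted p = 0.821) and 5.60 to 6.15 with 15d-PGJ2-PC (log2 difference -0.13, adjusted p = 0.307). Ndrg1, a stress- and hypoxia-induced gene of differentiation (Entrez 17988, chromosome 15, 66929318 to 66969641, minus strand), had the largest fall among members with 15d-PGJ2. It was at 151, 150.3 and 155 FPKM in the controls, 83.7, 85.0 and 89.9 with 15d-PGJ2 and 96.5, 94.0 and 90.6 with 15d-PGJ2-PC. Treated libraries lay far below the controls. Ndrg1 fell by 0.81 on the log2 scale with 15d-PGJ2 (SE 0.04, adjusted p = 4.90e-08) and by 0.69 with 15d-PGJ2-PC (SE 0.04, adjusted p = 7.76e-07). Epithelia express Ndrg1 too, and the summed epidermis markers were also lower in treated libraries (25.0 to 29.6 FPKM in controls and at most 1.48 in any treated library). Whether that RNA had a part in the fall was not tested.

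**Figure D4:**
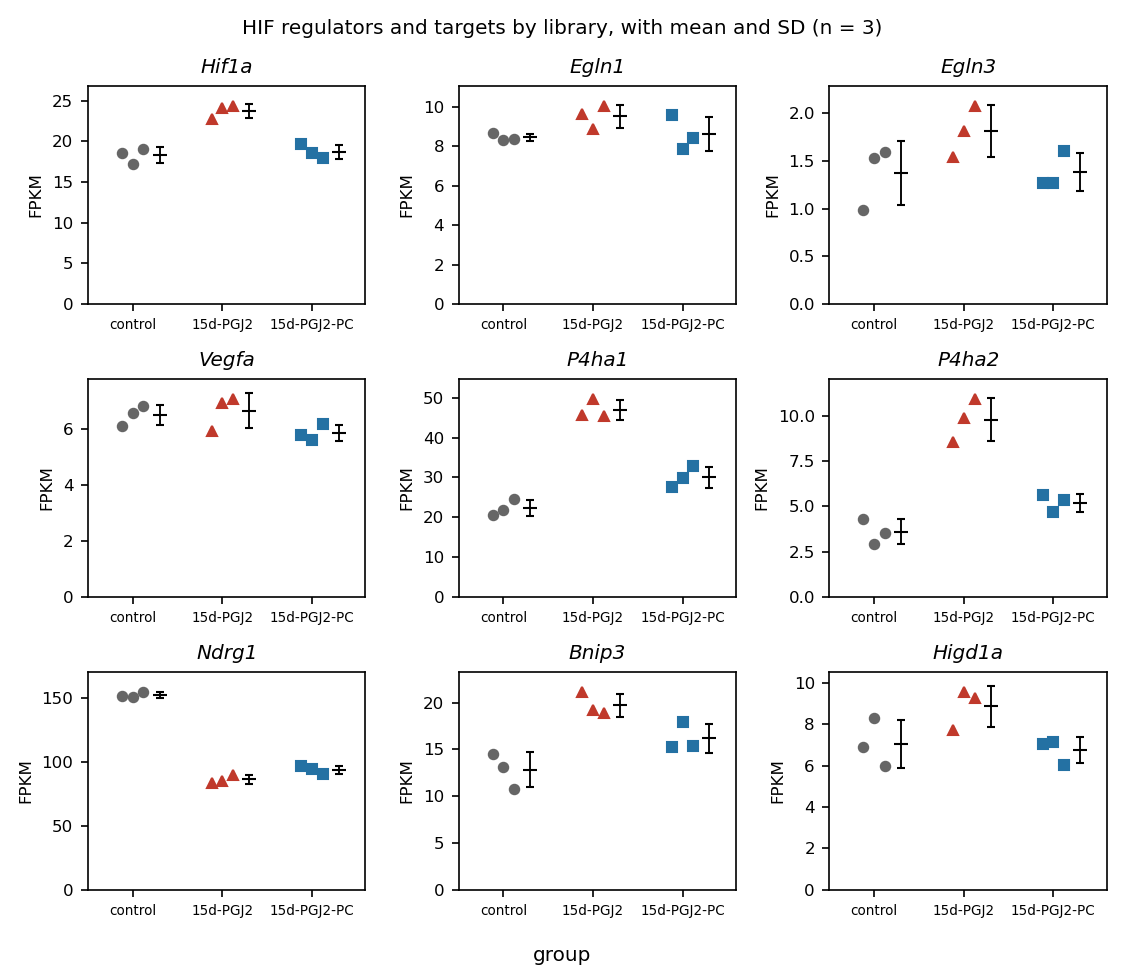
FPKM of the 3 HIF regulators and 6 HIF targets in each library (vertical axes from 0), with the group mean and SD (n = 3) beside the symbols. P4ha1, P4ha2 and Bnip3 are highest with 15d-PGJ2, Ndrg1 is lower in all treated libraries, and Vegfa overlaps between controls and 15d-PGJ2.

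Set against each other at the same dose and time, the compounds differed in 15 of the 31 tested members (48.4%, against 20.6% of all genes tested). RNA was lower with 15d-PGJ2-PC than with 15d-PGJ2 for 11 members, where 8.30% of all genes were lower, and higher for 4, where 12.3% were higher. Groups did not overlap for 21 members, 14 lower and 7 higher, against 37.3% of all genes, 16.7% lower and 20.5% higher. Of the 13 tested macrophage markers, 12 were higher with 15d-PGJ2-PC than with 15d-PGJ2, and the part of this in the differences was not tested. P4ha2 differed by -0.80 (95% interval -1.08 to -0.52, limma adjusted p = 0.00128), P4ha1 by -0.63 (-0.80 to -0.45, adjusted p = 0.000256) and Slc2a1 by -0.53 (-0.71 to -0.35, adjusted p = 0.00105). Pkm differed by -0.35 (-0.41 to -0.30, adjusted p = 6.43e-06), Hif1a by -0.33 (-0.46 to -0.20) and Aldoa and Pgam1 by -0.25 each. Gapdh, Pgk1, Eno1 and Gpi1 were lower by a log2 difference of -0.17, -0.17, -0.17 and -0.15, of which Pgk1 did not pass without 15d-PGJ2-PC replicate 1 (adjusted p = 0.0507) or without the intensity trend (0.0588) and Gpi1 did not without the trend (0.0586).

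Pfkfb4 was higher with 15d-PGJ2-PC by 0.43 (95% interval 0.23 to 0.62, limma adjusted p = 0.00652), Ldha by 0.21 (0.11 to 0.31), Tpi1 by 0.17 (0.09 to 0.26) and Hk3 by 0.16 (0.08 to 0.24, not passing without the trend, adjusted p = 0.0518). Hk2, which fell with both, differed by -0.03 with an interval of -0.19 to 0.14. Ndrg1 differed by 0.12 (0.03 to 0.21, adjusted p = 0.0568). It passed without 15d-PGJ2 replicate 3 (0.0366), without 15d-PGJ2-PC replicate 3 (0.0499) and with libraries scaled to equal summed FPKM (0.031). Pfkfb3 differed by 0.14 (0.02 to 0.25, adjusted p = 0.0871) and Vegfa by -0.16 (-0.35 to 0.03, adjusted p = 0.239). Bnip3 (-0.27, adjusted p = 0.0898), Higd1a (-0.35, 0.0645) and Slc16a1 (-0.49, 0.0667) did not pass. Leaving out 1 library gave a call for Bnip3 without control replicate 3 (0.0396), for Slc16a1 without control replicate 2 (0.0165) and for Higd1a without control replicate 2 (0.0445) or 3 (0.047) and without 15d-PGJ2 replicate 1 (0.0401). Slc16a1 also passed when only the 6 libraries of the contrast were fitted (limma adjusted p = 0.0193) and with a pseudocount of 5 (0.0422). The other members that did not pass, Hk1, Pfkl, Pfkm, Pfkp, Ldhb, Slc16a3, Pdk1, Egln1 and Egln3, had intervals that included 0, the widest that of Ldhb (-0.27 to 0.65).

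**Figure D5:**
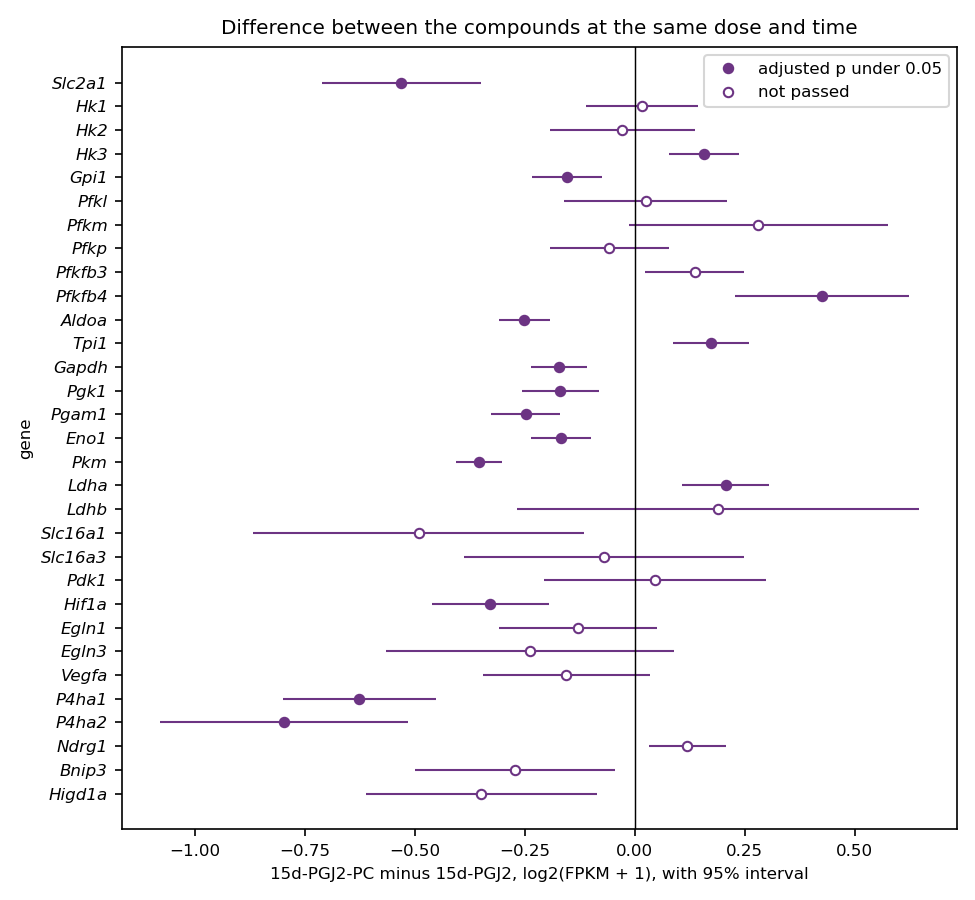
15d-PGJ2-PC minus 15d-PGJ2 in log2(FPKM + 1) for the 31 tested members, with 95% intervals, filled where the adjusted p was under 0.05. Slc2a1, P4ha1 and P4ha2 lie farthest to the left (-0.53, -0.63 and -0.80) and Pfkfb4 (0.43) is the highest filled point on the right.

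Other genes of the same pathways, 86 in 4 lists, were also counted. Of 18 tested genes of glycolysis and sugar handling outside the members, 6 rose and 4 fell with 15d-PGJ2 and 0 rose and 1 fell with 15d-PGJ2-PC (adjusted p under 0.05). That is 55.6% and 5.56% called, where 47.2% and 27.8% of all genes tested were called. Slc2a6, a glucose carrier of leukocytes, fell from 19.5 ± 0.39 to 10.9 ± 1.42 FPKM with 15d-PGJ2 and to 14.1 ± 0.73 with 15d-PGJ2-PC (SD, n = 3 per group, limma adjusted p = 1.71e-05 and 0.00251), while Slc2a1 rose. Pgm2l1, glucose 1,6-bisphosphate synthase, rose with 15d-PGJ2 from 3.44 to 7.40 FPKM, the ADP-dependent glucokinase gene Adpgk from 14.6 to 20.7 and the muscle enolase gene Eno3 from 3.51 to 5.28.

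Among 12 tested genes of pyruvate transport and oxidation in mitochondria, 5 rose and 2 fell with 15d-PGJ2 and 4 rose and 0 fell with 15d-PGJ2-PC. The called shares, 58.3% and 33.3%, were near the 47.2% and 27.8% of all genes. Pcx, pyruvate carboxylase, which makes oxaloacetate, rose from 1.78 ± 0.52 to 6.78 ± 0.72 and 3.46 ± 0.53 FPKM (SD, n = 3 per group, limma adjusted p = 1.05e-05 and 0.00511). Pdhx, a structural part of the pyruvate dehydrogenase complex, rose from 5.29 FPKM to 9.54 with 15d-PGJ2 and 8.01 with 15d-PGJ2-PC. Pdha1, the catalytic subunit of that complex, fell with 15d-PGJ2 from 29.7 to 23.1 FPKM and its inhibitory kinase gene Pdk2 from 5.38 to 3.81.

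Of 12 further genes of HIF control, 2 rose and 3 fell with 15d-PGJ2 and 1 rose and 3 fell with 15d-PGJ2-PC, 41.7% and 33.3% called against 47.2% and 27.8% of all genes. Egln2 (PHD1), the most abundant of the HIF prolyl hydroxylase genes here, fell from 71.6 to 54.7 and 61.6 FPKM (limma adjusted p = 6.11e-05 and 0.00614). The coactivator genes Ep300 and Crebbp fell by 0.34 and rose by 0.30 on the log2 scale with 15d-PGJ2, and Hif3a, low throughout, fell from 1.59 to 0.823 FPKM. Of 27 tested HIF targets outside the members, 8 rose and 10 fell with 15d-PGJ2 and 7 rose and 9 fell with 15d-PGJ2-PC, 66.7% and 59.3% called against the same background. The histone demethylase gene Kdm3a rose from 10.7 to 21.4 and 18.8 FPKM (limma adjusted p = 3.66e-07 with 15d-PGJ2). Lox, the collagen cross-linking enzyme, fell from 42.1 to 18.1 and 25.4 FPKM and the chemokine receptor gene Cxcr4 from 78.4 to 41.4 and 54.0. Lox is also made by stromal fibroblasts, whose summed markers were lower in treated libraries, and their part in its fall was not tested. Like the 6 member targets, these targets moved both ways.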

How the data were processed

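RNA of 9 libraries was extracted with Trizol and prepared with Illumina's TruSeq RNA kit, per the labels' protocols. The authors deposited 1 table of FPKM values for 18049 genes, per the file headers. The submitters' processing notes name BWA and build mm10. The BWA version, like the counting tool, was not given in the sources used here. Date-like symbols (23) were restored from Entrez numbers. Coordinates are from RefSeq (GRCm38.p6), 1-based. FPKM values were used as deposited. Genes that reached 1 FPKM in any 3 of the libraries (11309) were tested on log2(FPKM + 1), which understates changes of low genes, with limma 3.58.1 in R 4.3.3 (intensity trend, 1 residual variance over 3 groups, 2-sided, Benjamini-Hochberg over all tested genes within a contrast, threshold 0.05), checked on simulated data. Folds are ratios of mean FPKM. Reads per library were estimated with GENCODE M21 transcript lengths. Family shares were compared by exact permutation tests. The members and lists were chosen with earlier results of these data known. By rule, all members, the up to 4 context genes per list with the smallest p with 15d-PGJ2, and promoters of the 4 largest rises and 2 largest falls were named. One context gene that the rule names is not reported here. Alternatives covered pseudocount, filter, scaling, trend, libraries fitted, a replicate block and leaving out each library.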

Additional observations from a re-analysis of the deposited data

How the results depend on the processing

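Member counts stayed within 1.5 times their value under all 18 alternatives (17 for Ldhb, Slc16a1 and Egln3 as single genes). Members that changed numbered 19 to 22 with 15d-PGJ2 against control, 12 to 16 with 15d-PGJ2-PC against control and 12 to 17 between the compounds. Of the calls, 18 of 19, 11 of 15 and 12 of 15 were kept in every alternative that tested the gene; Slc16a1 was lost in the first comparison, Gapdh, Bnip3, P4ha2 and Pfkm in the second and Pgk1, Gpi1 and Hk3 in the third. No called member changed sign. Scaling moved the median of all genes by at most 0.0361 (log2). Among family shares, 1 of 252 values moved by more than the spread between replicates: with 1 added to each FPKM, the Aldoa share differed by 0.0973 points between 15d-PGJ2 and control. Same-numbered libraries deviated together little (r from -0.0434 to 0.0523), and a library correlated best with its own number in 10 of 18 cases. With 3 libraries per group, these values cannot decide whether the numbers pair the libraries. With the replicate block, 21, 15 and 16 members changed in the 3 comparisons, against 19, 15 and 15 without it. The block gave calls for Ldhb (adjusted p = 0.0116) and Higd1a (0.0446) with 15d-PGJ2 and for Higd1a between the compounds (0.0484).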

Other observations

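Ldha and Pkm, adjacent steps that moved in opposite directions, were set side by side after their values were seen. Ldha stood at 28.9 to 31.1 FPKM per 100 FPKM of Pkm in controls, 11.1 to 11.7 with 15d-PGJ2 and 15.9 to 17.2 with 15d-PGJ2-PC. Each gene alone already separated the 3 groups, in opposite orders. The ratio therefore had to separate them too and adds no further result.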
